A study of Mus musculus with 24 samples.

Results

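Ubiquitin ligases are the enzymes that pick the proteins to be tagged with ubiquitin. The genes described here are the mouse Rnf, Fbxl, Fbxo, Fbxw and Trim genes whose symbol carries a number, taken from a table of gene counts of gastrocnemius muscle. Of 226 protein-coding symbols of this form, leaving out the atrophy ligases Trim63, Fbxo32, Fbxo30 and Fbxo21, 141 had 10 or more counts in at least 3 of 12 libraries and are the members. They comprise 59 Rnf, 15 Fbxl, 23 Fbxo, 8 Fbxw and 36 Trim genes, out of 55401 rows in the table. They were chosen by their counts over all groups, so which genes are detected is not a finding. The rule left out 85 symbols, of which 20 had no count in any library. Just inside the rule was Trim59, which reached 10 counts in 3 libraries, and just outside were Rnf125, Rnf165 and Trim62, which reached it in 2. No member entered through 1 group only, and 130 of the 141 had at least 10 counts in all 12 libraries.

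The muscle came from male C57BL6 mice in 4 groups of 3, obtained at 4 weeks (young) or 10 weeks (adult) of age and used 1 week later. Burned mice received a full-thickness scald over 25% of the body surface, on the back and belly, with fluid resuscitation. Sham mice received the same anaesthetic and analgesic without the scald or the fluid, so burn and resuscitation cannot be told apart. The gastrocnemius, a calf muscle far from the wound, was taken 24 h later, and poly-A RNA was sequenced as 1 library per mouse. The study left out 1 young burn animal as an outlier. Its heat map labels young burn 1 and 3, so the fits below used 11 libraries without young burn 2, and values with all 12 are given beside them. Totals ran from 4392605 to 5688512 counts per library. Young burn 2 was the highest or the lowest of the 12 libraries for 60 of the 141 members (42.6%), against 41.5% of protein-coding genes. In each other library the share of members was between 5.67% and 27.7%. Summed muscle fibre markers ran from 68304 to 132125 CPM (counts scaled to 1000000 per library, with library totals adjusted by TMM factors) and were lowest in young burn 2, which also had the highest sum of neutrophil markers, 26.3 CPM against 8.85 and 8.89 CPM in the other young burn libraries.

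The families differ in how they work. RING finger proteins (the Rnf genes) and TRIM proteins, which carry a RING with B-boxes and a coiled coil, bring a ubiquitin-loaded E2 enzyme directly to the substrate. F-box proteins (Fbxl with leucine-rich repeats, Fbxw with WD40 repeats, Fbxo with other domains) are the exchangeable substrate receptors of the SCF complex, built on Skp1, Cul1 and Rbx1 and switched on by NEDD8. In muscle some members sit on the sarcomere or the membrane, and several TRIM genes are known interferon-stimulated genes of antiviral defence. In whole muscle, a change in the RNA of a cell type and a change in the number of those cells cannot be told apart.

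A block of TRIM genes lies on chromosome 7 of the mouse genome (GRCm38), with Trim34a, Trim5, Trim12a, Trim12c, Trim30a and Trim30d between positions 104244457 and 104507849. Promoters of this block are shown because Trim5, Trim12a and Trim30a were called between young burn and adult burn and Trim12a and Trim12c between the sham groups, while near-identical neighbours were not always called with them. In RefSeq promoters of GRCm38.p6 (250 bases before to 50 after the annotated start), which 110 of the 141 members matched, the core of the interferon-stimulated response element (ISRE), GAAA, any 2 bases and GAAA again, was searched on both strands, overlapping matches allowed. It occurred in 15 of 110 members (13.6%), in 8 of 13 interferon-regulated ligases (61.5%) and in 3.99% of 27025 genes. In Trim5, Trim12c, Trim30a, Trim30d and Trim26 the core lay before the start, and in Trim12a, Trim21 and Trim34a past or across it, as did a second core of Trim30a. The stretches before the start are given 5′ to 3′ on the strand of the gene, with the core in capitals. In each the core reads as its reverse complement.
Trim5: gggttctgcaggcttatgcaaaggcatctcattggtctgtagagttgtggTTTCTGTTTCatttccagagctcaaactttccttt
Trim12c: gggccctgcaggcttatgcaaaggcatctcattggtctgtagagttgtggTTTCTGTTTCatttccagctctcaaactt
Trim30a: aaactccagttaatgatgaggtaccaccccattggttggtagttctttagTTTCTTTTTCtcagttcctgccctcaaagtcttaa
Trim30d: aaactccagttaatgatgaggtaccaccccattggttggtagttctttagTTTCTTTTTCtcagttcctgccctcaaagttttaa
Trim26: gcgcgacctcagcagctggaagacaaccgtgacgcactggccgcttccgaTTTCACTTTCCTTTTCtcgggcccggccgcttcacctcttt
They lie at chr7:104288121-104288205 (minus strand), chr7:104353350-104353428 (minus), chr7:104465195-104465279 (minus), chr7:104507856-104507940 (minus) and chr17:36836936-36837026 (plus). Lined up on the core, Trim5 and Trim12c had the same base at 75 of 79 positions and Trim30a and Trim30d at 84 of 85, whereas Trim5 and Trim30a agreed at 39 of 85. In Trim26 the capitals hold 2 overlapping cores. A forkhead (FOXO) site, GTAAACA, occurred in 2 of 110 members (1.82%) and in 4.05% of all genes, and the core of the antioxidant response element, TGAC, any 3 bases and GC, in 16 (14.5%) and 14.0%. A match of letters is a description of the window and not a binding site.

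The near-identical promoters go with similar transcripts, which limits how reads can be assigned. In Gencode transcripts, 48.6% of the 75-base words of Trim34a (chiefly with Trim34b), 20.6% of those of Trim5, 17.3% of those of Trim12c, 5.58% of those of Trim12a and 5.40% of those of Trim30d were shared with another gene, in each case mainly another of these TRIM genes. Their values are therefore less certain than those of Trim25 and Rnf144a, which shared no word with any other gene. Rnf139, Rnf149, Fbxw4 and Rnf123 shared between 10.5% and 23.6% with other or antisense transcripts. Gm17018, on the strand opposite Fbxw4, had 59 to 104 counts per library, beside 14 to 72 of Fbxw4 itself. Tatdn1, opposite Rnf139, had 82 to 145, beside 110 to 359 of Rnf139. The main partners of Rnf149 and Rnf123, Gm15832 and Gmppb, had at most 9 and 29. For Rnf146, 71.5% of words overlapped transcripts on the opposite strand, chiefly of Echdc1, which had at most 13 counts in any library. Trim54 and Trim72 shared 14.9% and 21.8% of words with antisense transcripts that had at most 10 and 2 counts. None of the sources used here says whether reads were counted by strand.

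Per length, the muscle ligases Trim54, Fbxo40 and Trim72 were among the most abundant members. Others on that list were low, such as Trim32 and Fbxl22 with at most 79 and 100 counts in any library. Trim54 (MuRF3, a sarcomere and microtubule ligase of muscle) was first with 162 CPM per kb of exon on average over 11 libraries. Next came Rnf7 (a RING subunit of cullin ligases) at 89.0, Fbxo40 (a muscle F-box protein known to target the insulin receptor substrate) at 70.3, Rnf187 at 69.6 and Trim72 (MG53, a membrane repair protein of muscle) at 64.4 CPM per kb. The median over members was 4.47 CPM per kb, 33 members were above 10 and 14 below 1, and the lowest was Rnf152 at 0.243. Summed over all members, the level was 5328 ± 101 CPM in adult sham (SD, n = 3), 5546 ± 73.7 CPM in adult burn (n = 3), 4836 ± 214 CPM in young sham (n = 3) and 4817 ± 45.0 CPM in young burn (n = 2, 4991 CPM in young burn 2). After TMM scaling all young libraries were below the adult ones in this sum. As a share of raw counts the members took 0.540% to 0.579% in the adult libraries and 0.393% to 0.505% in the young ones other than young burn 2, which at 0.605% was then the highest of all 12.

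**Figure D1:**
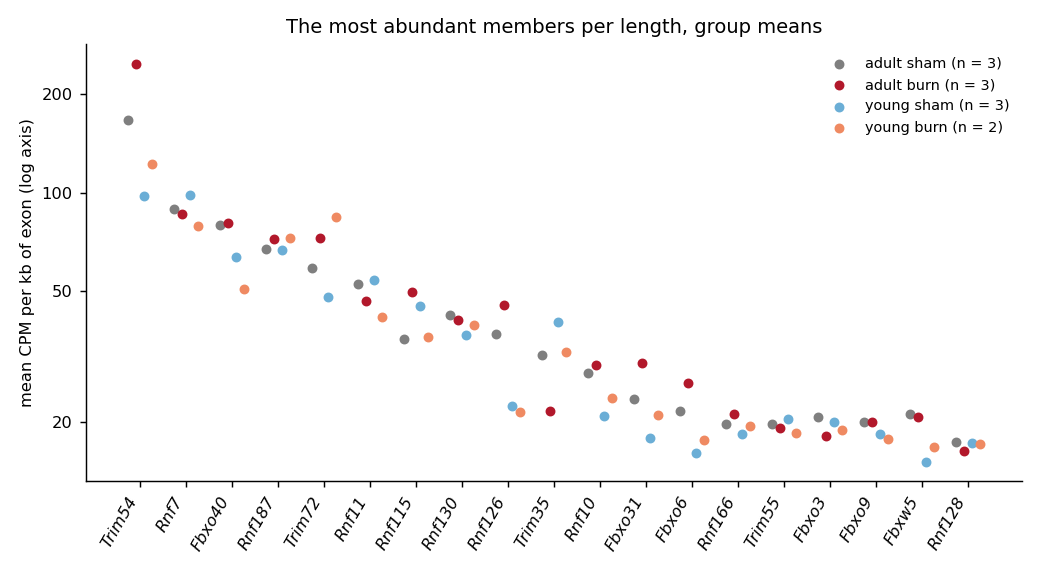
Members with the highest level per length, ordered by rank (19 of the first 20). The vertical axis gives mean CPM per kb of exon on a log scale, and each point is a group mean without young burn 2. Trim54 leads at 162 CPM per kb over all groups, and its adult burn mean stands highest.

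The first comparison asked how the members differ with age in uninjured muscle. Between young sham and adult sham, 22 of the 140 members tested were called (edgeR quasi-likelihood test, Benjamini-Hochberg adjusted p under 0.05 over all genes), 6 higher and 16 lower in the young. That is 15.7% of members, beside 11.9% of 11878 protein-coding genes, of which 5.09% were called higher and 6.77% lower. The median log2 fold change was -0.08 over members and -0.01 over protein-coding genes. With all 12 libraries in the fit, 11 members were called, 4 higher and 7 lower, beside 3.75% of protein-coding genes. Young sham and adult sham did not overlap for 45 members (32.1%), beside 31% of protein-coding genes. Scaling by library size alone, which moved the median of all protein-coding genes by -0.14, called 5 higher and 24 lower. Beside the age difference, summed fibroblast markers ran from 2263 to 3081 CPM in the adult and from 5354 to 6872 CPM in the young libraries, and tendon markers from 17.2 to 44.9 CPM in adult sham and 51.8 to 65.0 CPM in young sham. The study's RNA report gave no integrity number for any sample. Its ratios of large to small ribosomal RNA tended to be lower in young sham than in adult sham, and were similar between young burn and adult burn. These ratios also tended to be lower in adult burn than in adult sham, which bears on the adult burn comparison below. The part of these markers and of RNA quality in the calls was not tested.

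Trim54 was the muscle ligase that was lower in the young. Its level was 257, 254 and 208 CPM in adult sham and 169, 115 and 138 CPM in young sham. Every young sham library was below every adult sham library, by -0.77 ± 0.15 on the log2 scale (SE, adjusted p = 0.0049). After burn the difference was -1.01 ± 0.17 (adjusted p = 0.0013), with 290, 378 and 397 CPM in adult burn against 167 and 184 CPM in young burn. Young burn 2, at 223 CPM, was also below every adult burn library. Both calls stood under all 18 alternatives of processing.

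Rnf126, a cytosolic quality-control ligase that works with Bag6 on misplaced hydrophobic proteins, was lower in the young at both states. It measured 64.5, 59.7 and 65.8 CPM in adult sham against 46.0, 33.7 and 34.8 CPM in young sham. In burned mice it measured 65.7, 80.2 and 86.7 CPM in adults against 35.6 and 37.4 CPM in the young, with 39.7 CPM in young burn 2. No young library reached an adult one. The log2 fold changes were -0.74 ± 0.13 (adjusted p = 0.0033) and -1.09 ± 0.15 (adjusted p = 0.00036), and both calls stood under all 18 alternatives.

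Fbxl4, a mitochondrial F-box protein known to restrain mitophagy, was lower in the young as well. Adult sham libraries held 35.4, 41.4 and 33.8 CPM and young sham libraries 21.3, 20.2 and 25.7 CPM. In burned mice the values were 28.5, 39.3 and 42.6 CPM in adults and 18.9 and 16.8 CPM in the young, with 14.6 CPM in young burn 2. The groups did not overlap at either state, and the young differed by -0.72 ± 0.16 in sham mice (adjusted p = 0.0094) and -1.04 ± 0.18 in burned mice (adjusted p = 0.0015). Without adult sham 2 the sham call was at adjusted p = 0.051, and the call in burned mice stood under all 18 alternatives.

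Rnf144a and Rnf144b, paralogous RING-between-RING ligases, which pass ubiquitin through a cysteine of their own, differed with age in opposite directions. Rnf144a measured 10.2, 8.91 and 11.7 CPM in adult sham and 22.1, 22 and 28.3 CPM in young sham. After burn it measured 7.46, 9.02 and 7.68 CPM in adults and 21.4 and 15.8 CPM in the young, with 17.4 CPM in young burn 2. All young libraries lay above all adult libraries. The log2 fold changes were 1.22 ± 0.17 (adjusted p = 0.00078) and 1.21 ± 0.19 (adjusted p = 0.00099), and both calls stood under all 18 alternatives. Rnf144b, a known p53 target, was lower in the young, at 49.6, 43.2 and 29.3 CPM in adult sham and 26.4, 21.4 and 24.5 CPM in young sham. Its log2 fold change was -0.76 ± 0.23 in sham mice (adjusted p = 0.046) and -0.91 ± 0.25 in burned mice (adjusted p = 0.020). The Rnf144b call in sham mice was lost with all 12 libraries (adjusted p = 0.17). Of the 8 RING-between-RING ligases, the other 6 were not called in either age comparison, and the median of the 8 was -0.22 in sham and -0.18 in burned mice. The 2 called are 25% of this list at both states, beside 11.9% and 21.1% of protein-coding genes.

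Fbxl22, a sarcomeric F-box protein known to target alpha-actinin and filamin C, was higher in young sham, at 10.1, 19.8 and 16.4 CPM against 5.33, 4.45 and 8.15 CPM in adult sham. The groups did not overlap and differed by 1.37 ± 0.26 on the log2 scale (adjusted p = 0.0044), and this call stood under all 18 alternatives. After burn the young libraries held 7.78 and 7.48 CPM and the adult ones 5.81, 6.90 and 5.30 CPM, a difference of 0.35 ± 0.30 that was not called (adjusted p = 0.43). Trim7, a glycogenin-binding TRIM protein, was higher in the young at both states, by 0.89 ± 0.21 in sham (adjusted p = 0.015) and 1.07 ± 0.24 in burned mice (adjusted p = 0.0076). Its young burn values were 46.0 and 33.7 CPM, but young burn 2 held 11.9 CPM, below all adult libraries, and with 12 libraries neither call stood (adjusted p = 0.17 and 0.24).

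Trim2, known from neurons as a ligase for neurofilament light chain, was higher in the young by 0.76 ± 0.18 in sham (adjusted p = 0.016) and 0.82 ± 0.21 in burned mice (adjusted p = 0.013). It had a low level, 7.37 to 9.36 CPM in adult sham and 14.3 to 14.5 CPM in young sham. The groups did not overlap. The sham call was lost without adult sham 1 or young sham 3 and the call in burned mice without young burn 1 or 3, with adjusted p of at most 0.067 and 0.10.

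Rnf114, a RING protein linked to interferon responses, was lower in young sham, at 40.04, 37.0 and 36.7 CPM against 62.1, 63.9 and 53.1 CPM in adult sham, without overlap. It differed by -0.65 ± 0.10 on the log2 scale (adjusted p = 0.0015), a call that stood under all 18 alternatives. The other calls lower in young sham were Fbxw4 (-1.10), Rnf146 (-1.02, a ligase that reads poly-ADP-ribose), Fbxo44 (-1.02), Rnf150 (-0.87), Rnf149 (-0.80), Rnf139 (-0.62, an ER membrane ligase of sterol control), Rnf123 (-0.62, which targets p27), Fbxw5 (-0.48), Rnf41 (-0.45, known for ErbB3 and parkin), Rnf10 (-0.43) and Fbxo6 (-0.42, a reader of N-glycans on misfolded glycoproteins). With all 12 libraries 8 of these 11 lost their call, all but Fbxw4, Rnf146 and Fbxo44. Rnf41 kept its call in 3 of 18 alternatives, Rnf149 in 5, Rnf139 in 8, and Rnf10 and Fbxo6 in 9 each. For Rnf150 the 12 libraries were the one alternative that ended the call (adjusted p = 0.16), and young burn 2 held 13.3 CPM against 51.0 and 43.6 CPM in the other young burn libraries. Rnf149, Rnf150 and Rnf139 belong to the 16 membrane RING proteins, of which 3 were lower and none higher in young sham (18.8% called, beside 11.9% of protein-coding genes), and 0 with 12 libraries. None of the 12 chromatin and DNA damage ligases was called in sham mice, beside 11.9% of protein-coding genes. At an unadjusted p under 0.05 (edgeR) there were 2 of 12, beside 27.9%. DESeq2 called 0, beside 9.37%. A list of 12 genes is too short to set these counts apart from those shares.

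The second comparison asked how burned muscle differs with age. Between young burn and adult burn, 27 of 140 members were called, 11 higher and 16 lower in the young. That is 19.3% of members, beside 21.1% of protein-coding genes (11.2% higher and 9.89% lower), so the share of members called was near the background. The median log2 fold change was -0.08 over members and 0.00 over protein-coding genes. With all 12 libraries 11 members were called, 5 higher and 6 lower, beside 11% of protein-coding genes, and 10 of the 27 were among them. The one called only with 12 libraries was Fbxo17. Scaling by library size alone called 10 higher and 7 lower. The groups did not overlap for 78 members (55.7%), beside 53.7% of protein-coding genes, in a comparison of 2 libraries against 3.

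The age comparisons in sham and in burned mice share no library. Of the 22 members called in sham mice, 10 were called in the same direction in burned mice (45.5%), and all 22 had the same sign there. Over protein-coding genes, 57.6% were called again and 93.9% had the same sign. Taken from burned mice, 10 of 27 members (37%) were also called in sham mice, and 25 had the same sign, beside 32.4% and 91.4% of protein-coding genes. The 10 members were Rnf126, Fbxl4, Trim54, Rnf144b, Rnf146 and Fbxo6, lower in the young, and Rnf144a, Trim2, Trim7 and Trim12a, higher in the young.

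**Figure D2:**
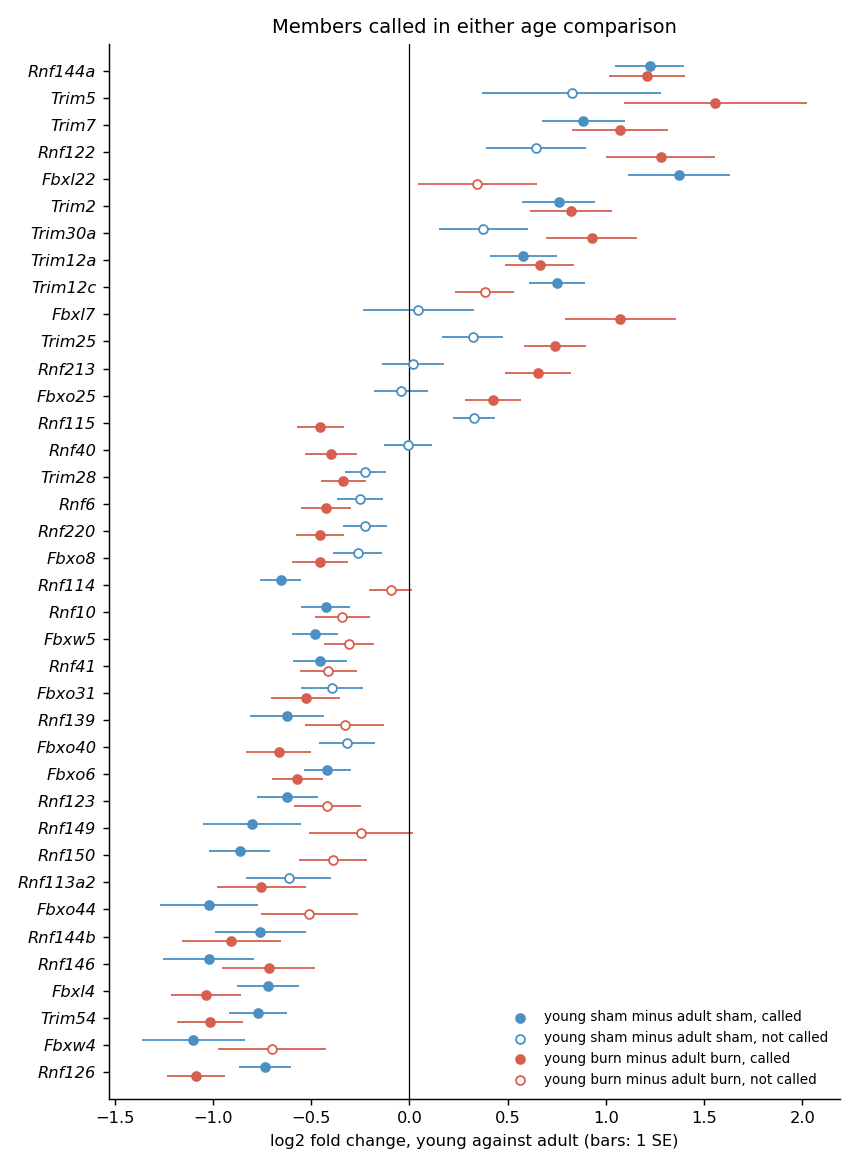
Members called in either age comparison, 38 of 39. The horizontal axis is the log2 fold change of young against adult with 1 SE, in sham (blue) and burned mice (red, without young burn 2), and filled points are called. Most pairs lie on the same side of 0, while those of Rnf115 and Fbxo25 lie on opposite sides.

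Among the muscle ligases Fbxo40 was called only in burned mice, with 288 and 273 CPM in young burn against 483, 444 and 409 CPM in adult burn. These values did not overlap, but young burn 2 held 415 CPM, within the adult range. The log2 fold change was -0.67 ± 0.16 (adjusted p = 0.012) and 12 libraries gave adjusted p = 0.14. In sham mice it was -0.32 ± 0.14 (adjusted p = 0.17), and the difference between both was not called (interaction -0.35 ± 0.22, adjusted p = 0.58). Of the 7 muscle ligases in the set, 2 were higher (Trim7, Fbxl22) and 1 lower (Trim54) in young sham, and 1 higher (Trim7) and 2 lower (Trim54, Fbxo40) in young burn. That is 42.9% called in each comparison, beside 11.9% and 21.1% of protein-coding genes. With 12 libraries 2 and 1 of the 7 were called, beside 3.75% and 11% of protein-coding genes. Trim55 (MuRF2) measured 43.8 and 54.5 CPM in young burn and 46.6 to 55.1 CPM in adult burn, and its log2 fold change was -0.05 ± 0.17. Trim32 was at 0.05 ± 0.18, and neither was called.

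Of the families and lists of members, the interferon-regulated ligases had the largest median difference in burned mice. Of 13, 5 were higher in young burn and none lower, with a median log2 fold change of 0.66 (38.5% called, beside 21.1% of protein-coding genes in either direction and 11.2% higher). With 12 libraries 3 were higher (23.1%, beside 11%) and the median was 0.60. DESeq2 on 11 libraries called 3 higher and none lower, beside 7.19% of protein-coding genes called higher. In sham mice 2 were higher and 1 lower, with a median of 0.32 (23.1% called, beside 11.9%).

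Trim25, which ubiquitinates the RNA sensor RIG-I, measured 26.0 and 24.6 CPM in young burn and 16.9, 14.2 and 14.3 CPM in adult burn. Young burn 2 held 28.3 CPM, so all 3 young burn libraries lay above the adult burn ones. The log2 fold change was 0.74 ± 0.16 (adjusted p = 0.0051, and 0.0077 with 12 libraries). Without young burn 1 it was 0.70 (adjusted p = 0.055), and the other 17 alternatives kept the call. In young sham it measured 16.5, 18.0 and 21.2 CPM.

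Trim30a measured 14.9 and 14.1 CPM in young burn, 11 CPM in young burn 2, and 9.29, 6.02 and 7.5 CPM in adult burn. The young burn libraries were again above the adult burn ones. On the log2 scale they differed by 0.93 ± 0.23 (adjusted p = 0.012, and 0.036 with 12 libraries). Without young burn 1 or young burn 3 the adjusted p was 0.088 and 0.057. Its neighbour Trim30d, with a promoter alike at 84 of 85 bases, had a log2 fold change of 0.87 ± 0.30 that was not called (adjusted p = 0.051), at 5.66 and 5.46 CPM in young burn and 2.93 to 3.15 CPM in adult burn.

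Rnf213, a very large interferon-induced AAA ligase, measured 21.4 and 27.9 CPM in young burn, 24.4 CPM in young burn 2, and 17.1, 14.3 and 15.4 CPM in adult burn. The groups did not overlap and differed by 0.65 ± 0.17 on the log2 scale (adjusted p = 0.014), and 0.45 without young burn 3 (adjusted p = 0.18). In sham mice the age difference was 0.02 ± 0.16.

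Trim12a and Trim12c, mouse relatives of the retroviral restriction factor Trim5, were higher in the young already without injury. Trim12c measured 19.2, 17.4 and 19.3 CPM in young sham and 9.83, 11.8 and 11.5 CPM in adult sham, a log2 fold change of 0.75 ± 0.14 (adjusted p = 0.0043) that was called under all 18 alternatives. Trim12a measured 11.5, 10.7 and 12.4 CPM against 8.81, 7.35 and 6.89 CPM, a log2 fold change of 0.58 ± 0.17 (adjusted p = 0.040, called in 5 of 18 alternatives). Neither overlapped between the sham groups. In burned mice Trim12a differed by 0.66 ± 0.18 (adjusted p = 0.017, and 0.070 with 12 libraries) and Trim12c by 0.38 ± 0.15 (adjusted p = 0.083). Trim5 had the largest fold of any member in burned mice, 1.56 ± 0.47 (adjusted p = 0.029), at low levels of 4.60 and 4.04 CPM against 1.66, 1.95 and 0.732 CPM. Young burn 2 held 1.78 CPM of Trim5, within the adult range, and with it the call was lost (adjusted p = 0.12).

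The other interferon-regulated ligases were not called in burned mice. Trim21 (the cytosolic antibody receptor) differed by 0.70 ± 0.27 (adjusted p = 0.075), Trim34a by 0.86 ± 0.52, Trim26 by 0.28 ± 0.14, Rnf135 (also a RIG-I ligase) by 0.18 ± 0.33, Trim56 by -0.08 ± 0.23 and Rnf114 by -0.10 ± 0.11. Of 26 interferon-stimulated genes outside the set, 15 were higher and none lower in young burn than in adult burn. That is 57.7% called, beside 21.1% of protein-coding genes, and the median log2 fold change of the 26 was 1.16. Of the 15, Ifit3 was higher by 1.80 (adjusted p = 0.00095) and Isg15, the ubiquitin-like modifier, by 1.64 (adjusted p = 0.0071). With 12 libraries 12 were higher (48% called, beside 11%). In sham mice 1 of 26 was called, higher (3.85%, beside 11.9%). There 25 of 26 had log2 fold changes above 0, with a median of 0.38, beside 5832 of 11878 protein-coding genes above 0. Against sham, 21 of 26 were below 0 in adults after burn (median -0.21), beside 5933 of 11878 protein-coding genes. In the young 24 of 26 were above 0 after burn (median 0.43), beside 6219 of 11878. Of these burn differences none was called by edgeR or DESeq2. At an unadjusted p under 0.05 (edgeR) there were 4 of 26 in adults, beside 13.7% of protein-coding genes, so near the background. In the young there were 9 of 26, beside 16.2%. Summed macrophage markers, which move in the same direction, ran from 534 to 914 CPM in young burn and from 386 to 520 CPM in adult burn. Their part in these differences was not tested. Lymphocyte markers were near 0, at 0.534 to 1.24 CPM in young burn.

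**Figure D3:**
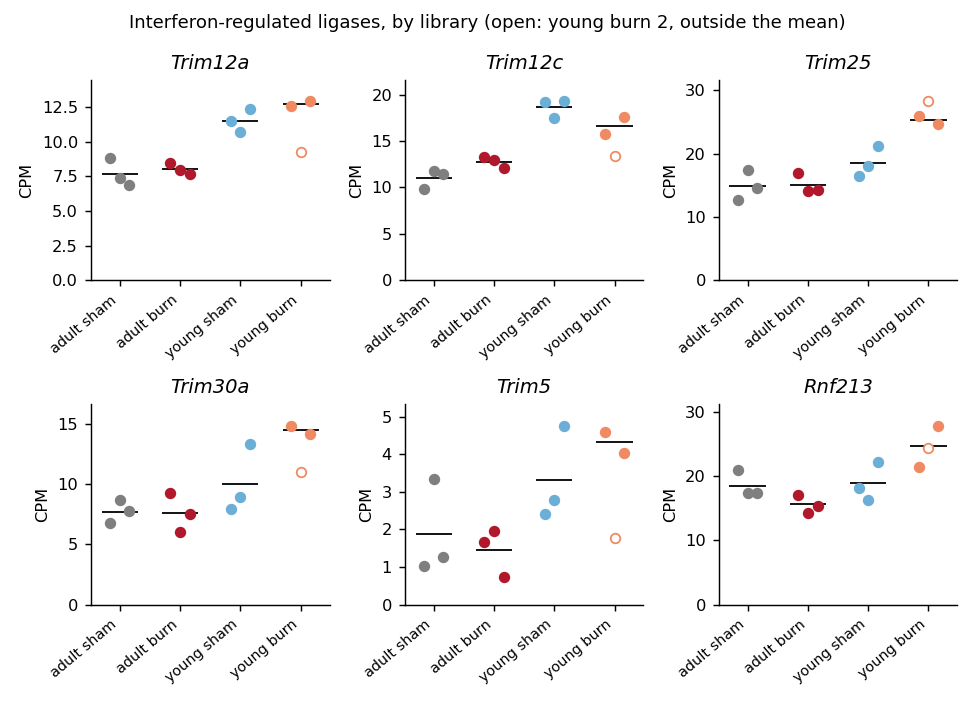
CPM of 6 interferon-regulated ligases in each library, with group means as bars (young burn 2 open and outside the mean). All 3 young burn libraries lie above every other library for Trim25 and above the adult burn libraries for Rnf213, where young burn 1 (21.4 CPM) lies below young sham 3 (22.1 CPM), whereas Trim12a and Trim12c are already higher in young sham than in adult sham.

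The remaining calls in burned mice were spread over the families. Higher in young burn were Rnf122 (1.28, a membrane RING protein), Fbxl7 (1.07, known to target Aurora A) and Fbxo25 (0.43). Lower were Rnf113a2 (-0.75, a splicing-linked RING protein), Fbxo31 (-0.53, which targets cyclin D1), Rnf115 (-0.45), Fbxo8 (-0.45), Rnf220 (-0.45), Rnf6 (-0.43), Rnf40 (-0.40, of the H2B ligase pair with Rnf20) and Trim28 (-0.34, the KAP1 corepressor, the smallest of the 16). Of these 11, Fbxo8 was also called with 12 libraries (adjusted p = 0.046). Young burn 2 was far from the other young burn libraries for several of them, at 43.2 against 16.8 and 16 CPM for Rnf113a2, 93.4 against 52.7 and 48.3 CPM for Rnf6, and 5.34 against 21.8 and 14.5 CPM for Rnf122. Rnf122 was the only one of 16 membrane RING proteins called in burned mice (6.25%), and Rnf40 and Trim28 were the 2 of 12 chromatin and DNA damage ligases (16.7%), both beside 21.1% of protein-coding genes. With 12 libraries 0 of either list were called. None of the 8 Fbxw genes was called in burned mice (edgeR), beside 21.1% of protein-coding genes. At an unadjusted p under 0.05 there were 2 of 8 (edgeR), beside 36%. DESeq2 called 0, beside 15.7%. With 8 genes these counts cannot be set apart from those shares.

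F-box proteins need the SCF core, so its genes were read as well. Of 26 genes of the SCF core and NEDD8 cycle, 6 were lower and none higher in young burn than in adult burn, with a median of -0.15. That is 23.1% called, near the 21.1% of protein-coding genes called in either direction. They were Cul1 (-0.53, the scaffold), the NEDD8 ligases Dcun1d2 (-0.44) and Dcun1d4 (-0.75), and the COP9 signalosome genes Gps1 (-0.43), Cops3 (-0.51) and Cops5 (-0.32), the last of which removes NEDD8. With 12 libraries 1 was called. In sham mice Dcun1d1 was higher (0.39) and Cops3 lower (-0.63). The 4 atrophy ligases left out of the set, which mark protein breakdown in wasting muscle, were all called lower in young burn than in adult burn. Fbxo32 differed by -2.54 and Trim63 by -1.86. With 12 libraries 2 of the 4 were called lower. The shares of protein-coding genes called lower were 9.89% and, with 12 libraries, 4.92%. In sham mice all 4 were already below 0 in the young (median -0.63). There 1 of the 4 was called lower, beside 6.77% of protein-coding genes.

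The third comparison asked what burn changes at each age. In adults 1 of 140 members was called against sham, Rnf115, higher after burn (0.714%, beside 0.926% of protein-coding genes), and with 12 libraries 0 (beside 0.00853%). DESeq2 called 2 (beside 2.31%), Rnf115 and Trim54. At an unadjusted p under 0.05 there were 18 members (12.9%, beside 13.7%). In the young 2 of 140 were called, Rnf114 and Trim72, both higher after burn (1.43%, beside 0.682%), with 17 at an unadjusted p under 0.05 (12.1%, beside 16.2%). With 12 libraries the young count was 0 (beside 0.0683%), and DESeq2 called 2 (beside 2.09%). With burn as a term adjusted for age, 2 were called, Trim54 and Trim72, both higher (1.43%, beside 2.17%), and 0 with 12 libraries (beside 0.725%). DESeq2 on 11 libraries called 4 (beside 3.35%), these and Trim7 and Rnf11, both lower.

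Trim72 measured 130, 92.1 and 98.8 CPM in young sham and 181 and 195 CPM in young burn. Those values did not overlap, but young burn 2, at 113 CPM, lay within the sham range. The log2 fold change was 0.81 ± 0.14 (adjusted p = 0.023) and 0.60 with all 12 libraries (adjusted p = 0.12). Leaving out young burn 1, young burn 3, young sham 2 or young sham 3 gave adjusted p between 0.059 and 0.36. In adults it measured 145, 127 and 124 CPM in sham and 170, 145 and 173 CPM after burn, a log2 fold change of 0.30 ± 0.13 that was not called (adjusted p = 0.31). Adjusted for age the burn term was 0.53 ± 0.11 (adjusted p = 0.024).

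Trim54 rose with burn in the fit adjusted for age, by 0.46 ± 0.11 (adjusted p = 0.045, and 0.067 with 12 libraries). Within adults it was 0.57 ± 0.15 (adjusted p = 0.085), where all adult burn libraries lay above all adult sham libraries, and within the young 0.32 ± 0.17 (adjusted p = 0.35), where the groups overlapped. The call adjusted for age was kept in 7 of 17 alternatives. Leaving out adult sham 3, the lowest adult sham library, gave 0.40 (adjusted p = 0.12).

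Rnf114 measured 57.0 and 54.6 CPM in young burn, above the young sham values and within the range of the 6 adult libraries, 53.1 to 63.9 CPM. Young burn 2 held 43.6 CPM, also above young sham. The log2 fold change in the young was 0.56 ± 0.11 (adjusted p = 0.044) and in adults 0.00 ± 0.10. The call was kept in 7 of 18 alternatives, and leaving out young burn 3 gave 0.59 (adjusted p = 0.41). The difference between the ages was 0.56 ± 0.15 and was not called (adjusted p = 0.24).

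Rnf115, a RING protein also known as BCA2, measured 92.4, 120 and 99.2 CPM in adult sham and 147, 139 and 147 CPM in adult burn. In the young it measured 125, 135 and 131 CPM in sham and 112 and 98.4 CPM after burn. Adult burn thus lay above adult sham without overlap, and these young burn libraries below young sham. Young burn 2 held 207 CPM, the highest of all 12 libraries. The adult log2 fold change was 0.48 ± 0.11 (adjusted p = 0.049), a call kept in 5 of 18 alternatives, and the young one -0.31 ± 0.12 (adjusted p = 0.23). With 12 libraries the adult value was again 0.48 (adjusted p = 0.72).

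**Figure D4:**
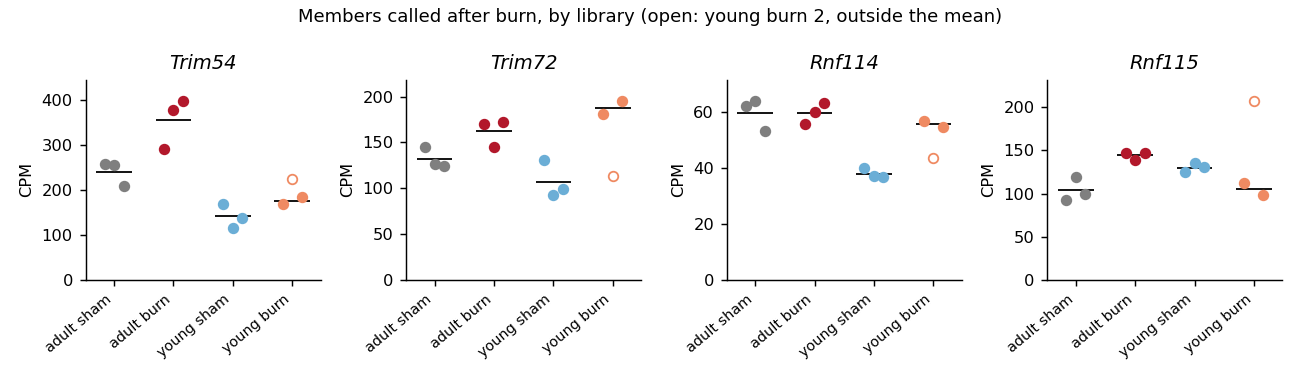
CPM of Trim54, Trim72, Rnf114 and Rnf115 in each library, with group means as bars (young burn 2 open and outside the mean). Adult burn lies above adult sham for Trim54 and Rnf115, and young burn 2 lies apart from the other young burn libraries for Trim72 and Rnf115.

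The fourth comparison asked whether the burn response differs with age. In the interaction of burn and age, edgeR called 0 of 140 members (beside 0.101% of protein-coding genes) and 0 with 12 libraries (beside 0%), and 13 had an unadjusted p under 0.05 (9.29%, beside 11.3%). The lowest p was that of Rnf115, with an interaction of -0.78 ± 0.16 (adjusted p = 0.097). DESeq2 on 11 libraries called it alone among members (beside 0.411%), at -0.80 (adjusted p = 0.0036), and with 12 libraries its adjusted p was 1.0. Adult and young burn effects, which share no library, had the same sign for 81 of 140 members. The share over all protein-coding genes was not computed, so this count shows nothing particular to the members. A log2 fold change beyond 1 in either direction occurred for 1 member in adults, Rnf135 (1.15 ± 0.35, adjusted p = 0.14), and for 2 in the young, Trim45 (1.23) and Fbxl22 (-1.02 ± 0.28, adjusted p = 0.099). Rnf135 measured 1.43, 1.11 and 2.93 CPM in adult sham and 3.48, 4.95 and 3.84 CPM in adult burn, without overlap. Summed neutrophil markers ran from 1.67 to 4.71 CPM in adult sham and from 5.84 to 12.9 CPM in adult burn, and their part was not tested.

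**Figure D5:**
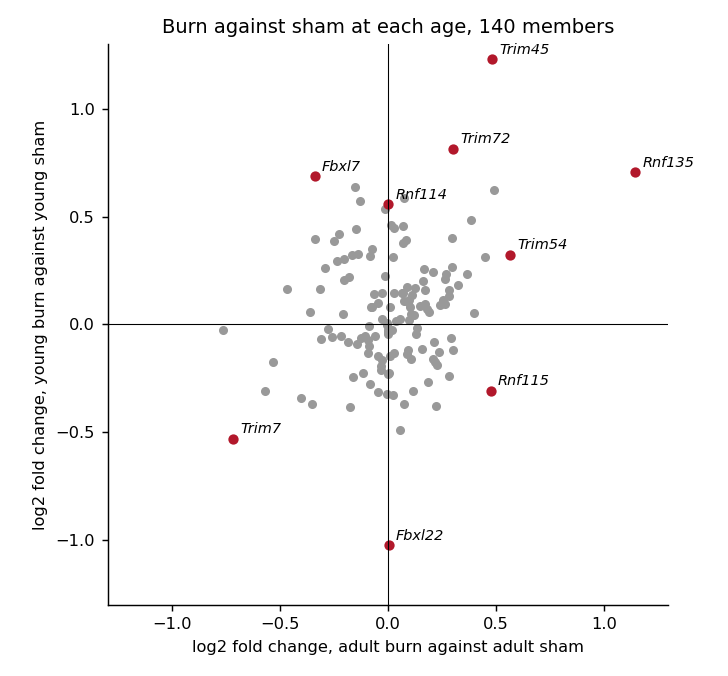
Log2 fold change of burn against sham for each of the 140 members tested, in adults (horizontal axis) and in the young (vertical axis, without young burn 2). Named members are in red. Most points lie within 0.5 of 0 on both axes, Trim72 and Trim54 lie in the upper right quadrant and Rnf115 in the lower right.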

How the data were processed

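Per the labels and the study's methods, the authors prepared poly-A libraries with the NEBNext Ultra II kit, sequenced them paired-end, aligned reads with STAR 2.7.5c to GRCm38 and counted them per gene on Gencode M25. The deposited values are raw counts per gene for 12 libraries (4392605 to 5688512 per library), used as deposited. A small RNA table was not used. Biotypes and lengths came from Gencode M21, which lacked 260 of 55401 identifiers.

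Members follow a rule on symbols and counts. Members and gene lists were chosen with earlier results of these data known. Genes passing filterByExpr (minimum count 10, minimum total 15) were scaled by TMM, 12651 in all, and tested in edgeR 4.0.16 (R 4.3.3) with the quasi-likelihood test, 1 mean per group, 11 libraries without young burn 2, and Benjamini-Hochberg adjustment over all genes tested. Fbxo36 did not pass the filter. SE is the absolute log2 fold change divided by the square root of F. CPM uses TMM-scaled totals. Named genes are up to 15 called members per direction and comparison, all muscle and interferon-regulated ligases, and 4 atrophy ligases. The values of 1 called member are not reported here. Further genes named for rank, low p or place near a threshold (such as Fbxo17, Trim28, Trim45 and Rnf25) were chosen after their values were seen. Other lists were membrane RING proteins, chromatin and DNA damage ligases, RING-between-RING ligases, SCF core and NEDD8 cycle, and interferon-stimulated genes. Alternatives were 12 libraries, DESeq2 1.42.0, RLE or library size scaling, no filter, a replicate block, fits of the compared groups alone and leaving out each library. Scripts were tested on simulated data.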

Additional observations from a re-analysis of the deposited data

Results flagged for a closer look

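Rnf115, Rnf25 and Fbxo25 moved one way with burn in every adult library and the other way in young burn 1 and 3, by comparison with the sham libraries of the same age. Of all 141 members, these 3 did so (2.13%), beside 1.93% of protein-coding genes under the same count rule. Rnf115 differed by 0.48 (log2 fold change) after burn in adults and by -0.31 in the young. The interaction was not called by edgeR (adjusted p = 0.097) and was called by DESeq2 (adjusted p = 0.0036). Rnf25, a RING protein, differed by 0.23 in adults and -0.19 in the young (interaction -0.42, edgeR adjusted p = 0.42). Fbxo25, an F-box protein, differed by -0.14 in adults and 0.33 in the young (interaction 0.47, edgeR adjusted p = 0.41). With young burn 2 included, 0 of the 141 members showed the pattern, beside 70 of 11837 protein-coding genes. Young burn 2 held 207 CPM of Rnf115, 20.6 CPM of Rnf25 and 8.19 CPM of Fbxo25.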

How the results depend on the processing

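Counts of members called changed with the libraries used. With all 12 libraries they were 11 in place of 22 (young sham against adult sham), 0 in place of 1 (adult burn against adult sham), 0 in place of 2 (young burn against young sham), 11 in place of 27 (young burn against adult burn) and 0 in place of 2 (burn adjusted for age). DESeq2 on 11 libraries called 5 higher and 13 lower for young sham against adult sham, beside 9.37% of protein-coding genes. For young burn against adult burn it called 7 higher and 12 lower, beside 15.7%. It called 2 in adults after burn, 1 in the interaction and 4 for burn adjusted for age. Library size scaling called 0 in adults after burn and 17 in young burn against adult burn. It shifted the median of all protein-coding genes by -0.14 in the sham age comparison, by 0.17 for burn in the young and by 0.18 in the interaction. Without the filter 4, 4, 1 and 6 were called in adults after burn, in the young after burn, in the interaction and for burn adjusted for age. In fits of the compared groups alone 0 and 1 were called after burn in adults and in the young. RLE scaling kept all 53 calls of named genes.

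Leaving out 1 library gave 8 to 23 calls for young sham against adult sham, 0 to 1 for adult burn against adult sham, 0 to 3 for young burn against young sham, 8 to 32 for young burn against adult burn and 0 to 5 for burn adjusted for age. The lowest of the age counts were 8 without young sham 3, 10 without adult sham 2 and 13 without young sham 2 in sham mice, and 8 without young burn 1, 9 without young burn 3 and 16 without adult burn 3 in burned mice. Of 952 values of named genes called in the 11 libraries and refitted under the alternatives, 691 kept their call, 261 lost it and 0 changed direction. The cause of these changes was not tested.

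With the replicate number as a block, 18, 0, 0, 18 and 1 members were called for young sham against adult sham, adult burn against adult sham, young burn against young sham, young burn against adult burn and burn adjusted for age. Libraries with the same number showed no common deviation (15 pairs, correlations -0.17 to 0.13, 2 over 0.1). Deviations were taken from group means over few libraries, which ties them to each other within a group. The check therefore cannot decide whether the numbers pair the mice.

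With 2 or 3 mice a group, the depth and the spread limit what can be seen of low genes such as Trim5 and Trim34a. Replicates differed by more than counting noise (chi-square per degree of freedom of 3.32 to 36.9, the highest for pairs with young burn 2).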
